A study of Homo sapiens with 14 samples.

Results

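The 10 genes described here were the bone morphogenetic protein (BMP) ligands BMP2, BMP4 and BMP7, the secreted BMP antagonists NOG and CHRD, the decoy receptor BAMBI, and the ID genes ID1, ID2, ID3 and ID4. They were chosen by name, were 10 of the 63677 gene IDs of each bulk count table, and all 10 were also among the 17493 genes of the table of gastruloid nuclei. The study asked how primate-specific transposable elements shape gene expression in human gastrulation models made from H9, an established human embryonic stem cell line. Bulk mRNA sequencing covered 12 libraries in 5 groups, and 1 gastruloid preparation was profiled as single nuclei for RNA and accessible chromatin. The hESC group (n = 2) was undifferentiated H9 in mTSER medium. DE_ctl (n = 3) was H9-derived endoderm that expressed the repressor dCAS9-KRAB without sgRNA, made with 100 ng/ml Activin A for 3 days and the GSK-3 inhibitor CHIR-99021 at 5 µM on the first day and 0.5 µM on the second. DE_CRISPRi (n = 3) was the same endoderm with an sgRNA against LTR5 elements, the long terminal repeats of the HERVK endogenous retrovirus. FG_ctl and FG_CRISPRi (n = 2 each) were taken 3 days further toward foregut, without and with the sgRNA by their titles. Gastruloids, 3-dimensional aggregates of 800 cells per well pulsed with 3 µM CHIR-99021, were harvested at 72 h.

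Some labels of the foregut libraries went against their titles. A status field called FG_ctl hESC and called FG_CRISPRi endoderm without sgRNA. TTR, a transport protein made by liver and foregut derivatives, was at 1558 to 1930 CPM in FG_ctl and 1500 to 1944 CPM in FG_CRISPRi and had 0 reads in the hESC and endoderm libraries, while the pluripotency factor NANOG was at 0 CPM in FG_ctl, at most 0.0709 CPM in FG_CRISPRi and 28.1 to 46.1 CPM in hESC. SOX2 (141 to 193 CPM in FG_ctl, 151 to 159 in hESC) and LIN28A (570 to 811 against 467 to 904) overlapped hESC. The pluripotency markers POU5F1, DPPA4, ZFP42 and DNMT3B were lower in both foregut groups. Of the listed foregut markers, SOX9 and PROX1 overlapped between FG_ctl and hESC, while the others counted were higher in FG_ctl. These markers bear on stage only. The 4 libraries are called by their titles, from which the sgRNA status of FG_CRISPRi is also taken. SOX17, the defining endoderm factor, was at 0 reads in hESC and 207 to 283 CPM in DE_ctl. LTR5_Hs transcripts, which the sgRNA targets, were lower in DE_CRISPRi (10.6 to 14.1 CPM relative to gene reads) than in DE_ctl (17.8 to 19.2), whereas in the foregut the libraries labelled FG_CRISPRi (4.43 and 10.9) lay on both sides of FG_ctl (8.75 and 9.10). LTR5B was lower in both tissues, at 1.5 to 3.36 against 5.03 to 5.57 in endoderm and 4.28 to 5.59 against 9.29 to 12.4 in foregut. The labels name the repressor for endoderm but not for hESC, so stage and repressor cannot be told apart in a comparison of those groups. In bulk samples, fewer cells of a type and less RNA per cell cannot be told apart either.

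BMPs are secreted dimers that bind a complex of type I and type II serine/threonine kinase receptors. The receptors phosphorylate SMAD1, SMAD5 and SMAD9, which enter the nucleus with SMAD4 and switch on target genes, among them the ID genes. ID proteins are helix-loop-helix factors without a DNA-binding region that hold E proteins and other basic helix-loop-helix factors inactive. NOG (noggin) and CHRD (chordin) bind BMPs outside the cell and keep them from their receptors, and BAMBI is a membrane pseudoreceptor that lacks the kinase. In the gastrula, BMPs pattern mesoderm and ectoderm, and the node and notochord are a known source of NOG and CHRD.

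The promoters of 7 members were in the RefSeq promoter table (GRCh38.p14), and for each of the 7 genes at least 1 listed promoter overlapped an accessible-chromatin peak of the gastruloids, against 60.6% of 27305 genes in that table. BMP2, BMP7 and NOG had no entry there. The 250 bases before the start site are printed for CHRD (chr3:184379804-184380053, plus strand) and BAMBI (chr10:28677271-28677520, plus strand), which had their highest levels in TBXT-positive nuclei. They are also printed for ID1 (chr20:31605039-31605288, plus strand), ID3 (chr1:23559502-23559751, minus strand) and ID4 (chr6:19837120-19837369, plus strand). ID2 is left out, since the bases before its start site lie in an exon of a longer ID2 transcript. Capitals mark GGCGCC, the motif to which SMAD1 and SMAD5 bind in BMP response elements, and GTCT or its reverse complement AGAC, the motif to which SMAD4 binds.
CHRD: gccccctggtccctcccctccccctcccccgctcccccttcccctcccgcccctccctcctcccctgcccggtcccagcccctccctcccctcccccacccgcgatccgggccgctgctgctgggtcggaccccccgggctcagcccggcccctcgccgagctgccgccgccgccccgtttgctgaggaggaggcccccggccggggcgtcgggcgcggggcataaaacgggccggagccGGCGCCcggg
BAMBI: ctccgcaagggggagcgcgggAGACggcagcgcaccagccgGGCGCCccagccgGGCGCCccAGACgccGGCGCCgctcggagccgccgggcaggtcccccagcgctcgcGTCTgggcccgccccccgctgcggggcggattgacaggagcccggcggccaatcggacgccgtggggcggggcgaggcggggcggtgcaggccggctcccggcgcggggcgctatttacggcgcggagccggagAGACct
ID1: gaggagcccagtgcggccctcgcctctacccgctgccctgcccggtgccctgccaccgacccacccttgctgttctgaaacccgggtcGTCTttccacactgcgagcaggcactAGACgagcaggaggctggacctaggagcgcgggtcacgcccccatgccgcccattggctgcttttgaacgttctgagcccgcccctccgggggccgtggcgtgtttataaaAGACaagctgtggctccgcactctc
ID3: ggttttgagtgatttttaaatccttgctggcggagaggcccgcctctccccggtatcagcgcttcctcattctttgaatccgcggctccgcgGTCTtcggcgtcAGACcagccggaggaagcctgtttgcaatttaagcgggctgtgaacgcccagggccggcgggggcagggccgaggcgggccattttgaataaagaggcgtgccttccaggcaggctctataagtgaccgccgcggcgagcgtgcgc
ID4: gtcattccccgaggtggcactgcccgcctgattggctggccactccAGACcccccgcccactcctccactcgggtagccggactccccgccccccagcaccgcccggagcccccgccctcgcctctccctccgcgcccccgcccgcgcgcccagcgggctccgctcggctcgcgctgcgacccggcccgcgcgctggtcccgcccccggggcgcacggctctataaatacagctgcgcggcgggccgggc

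The BAMBI promoter held 3 copies of GGCGCC, a number found in 0.527% of 35116 promoters of the same length, and 4 copies of GTCT. CHRD held 1 GGCGCC, which began 10 bases before the start site, and 16.4% of promoters held at least 1. ID1 held 3 copies of GTCT, ID3 held 2 and ID4 held 1, with 77.5% of promoters holding at least 1 and 20.9% at least 3. TATAAA, read on both strands, occurred in the ID1 and ID4 sequences and in 10.7% of promoters. The T-box motif AGGTGTGA occurred in 0.786% of promoters and in none of these 5 sequences. Around the gene bodies, with 50 kb on either side, accessible peaks were densest at ID1 (17.8 per 100 kb), ID3 (17.7) and CHRD (17.2), at the 95th, 94.8th and 93.7th percentile of 20037 coding genes, and least dense at ID4 (7.63, the 40.3rd percentile).

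Levels in bulk libraries are given in CPM, gene counts scaled to a common library size by TMM, and between genes as CPM per kb of merged exons. In hESC, ID3 stood first per kb (39.3 ± 0.117, SD, n = 2), followed by ID1 (17.1 ± 1.55) and ID2 (16.8 ± 1.03), whose ranges overlapped. BAMBI (6.62 ± 2.70 CPM per kb) and BMP7 (3.22 ± 0.184) came next. BMP4 (0.795 ± 0.0507 CPM per kb) and NOG (0.0643 ± 0.0278) closed the order. In DE_ctl, BMP2 rose to the second place (36.7 ± 4.51 CPM per kb, n = 3), between ID3 (58.8 ± 5.19) and ID1 (30.3 ± 0.783), and its range overlapped neither. BMP4 (16.5 ± 6.37 CPM per kb) overlapped both of its neighbours in DE_ctl, ID2 (22 ± 3.10) and BAMBI (16.4 ± 1.40), which did not overlap each other. CHRD was last there (0.786 ± 0.357 CPM per kb), with a range overlapping that of ID4 (0.869 ± 0.562). In FG_ctl, ID1 (31.0 ± 12.3 CPM per kb, n = 2) and ID3 (23.5 ± 5.88) led with overlapping ranges, and CHRD (0.578 ± 0.181) and NOG (0.215 ± 0.304) were last. CHRD, ID2 and ID4 overlap genes on the opposite strand (THPO, ID2-AS1 and LNC-LBCS, with 254, 39 and 341 reads over the 12 libraries beside 1172, 10134 and 3001 for the members), and since the strand setting of the counting was not stated, reads of such pairs may not have been told apart. Of the 9 pairs of neighbours in each order, 3 overlapped in hESC, 4 in DE_ctl, 6 in DE_CRISPRi, 5 in FG_ctl and 8 in FG_CRISPRi.

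**Figure D1:**
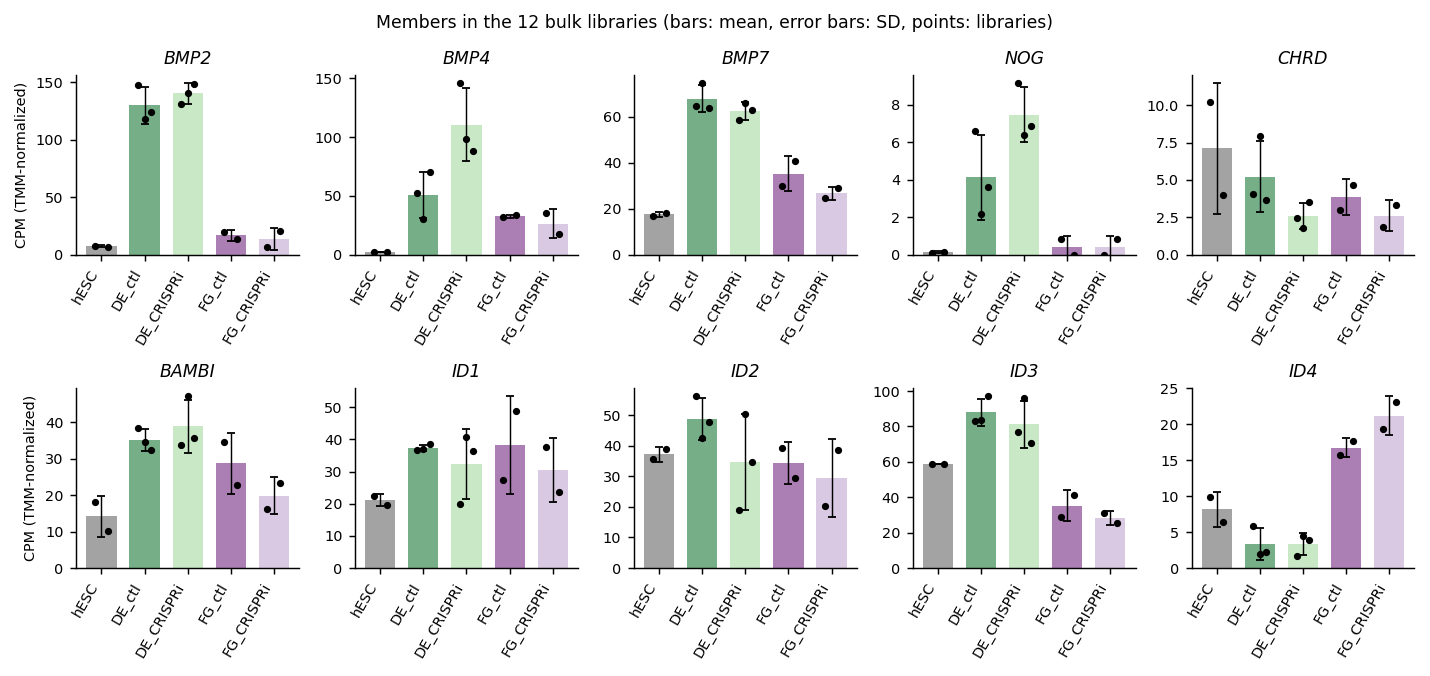
Level of each member in CPM (vertical axis, a separate linear scale for each gene) in the 5 bulk groups, with bars for the mean, error bars for the SD and points for libraries. BMP2, BMP4 and NOG were highest in the endoderm groups, and ID4 was highest in the foregut groups.

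Endoderm was first compared with undifferentiated cells to ask how BMP signaling genes changed during differentiation. All 3 ligands, NOG and BAMBI rose in endoderm and ID4 fell. BMP2 was at 7.90 and 6.63 CPM in hESC and at 148, 118 and 124 CPM in DE_ctl. BMP4 was at 2.35 and 2.57 CPM in hESC and at 52.4, 30.7 and 70.1 CPM in DE_ctl. Both ligands were thus higher in every endoderm library than in either hESC library. On the log2 scale BMP2 rose by 4.16 (SE 0.23, adjusted p = 3.29e-09) and BMP4 by 4.37 (SE 0.35, adjusted p = 1.16e-07), by edgeR's quasi-likelihood test with Benjamini-Hochberg adjustment over all 20818 genes tested. BMP7, which can form heterodimers with both, went from 16.8 and 18.2 CPM to 64.8, 74.6 and 63.9 CPM, a log2 rise of 1.95 (SE 0.20, adjusted p = 1.98e-06).

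The antagonists did not move as a block. NOG was counted at only 2 and 4 reads in hESC (0.0854 and 0.161 CPM) and at 133, 47 and 57 reads in DE_ctl (6.62, 2.16 and 3.63 CPM). Its groups did not overlap, and it rose by 5.00 on the log2 scale (SE 0.62, adjusted p = 1.21e-05). CHRD was at 10.2 and 4.02 CPM in hESC and at 4.08, 7.94 and 3.63 CPM in DE_ctl. These ranges overlapped, and the log2 difference of -0.44 (SE 0.39, adjusted p = 0.397) did not pass the test and turned to 0.374 without hESC replicate 1. BAMBI went from 18.2 and 10.1 CPM to 38.4, 34.6 and 32.5 CPM, a rise of 1.32 on the log2 scale (SE 0.25, adjusted p = 6.58e-04), and without hESC replicate 2 the rise was 0.949, under the 2-fold limit.

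Among the ID genes, ID4 was at 9.83 and 6.47 CPM in hESC and at 5.87, 1.93 and 2.29 CPM in DE_ctl. Its groups did not overlap, and the log2 change was -1.27 (SE 0.39, adjusted p = 0.0183). The ID4 call was lost without either hESC replicate (-0.945 and -1.54), without DE_ctl replicate 2 (-0.985) and with all 12 libraries in one fit (-1.30, adjusted p = 0.0558). ID1 went from 22.4 and 19.7 CPM to 36.7, 37 and 38.5 CPM. ID3 went from 58.7 and 58.9 CPM to 83.2, 83.9 and 97.0 CPM. Both were higher in every endoderm library, with log2 differences of 0.83 for ID1 (adjusted p = 0.00337) and 0.58 for ID3 (adjusted p = 0.0204), under the 2-fold limit set for a call. ID2 was at 35.5 and 38.8 CPM in hESC and 56.1, 42.4 and 47.9 CPM in DE_ctl, a log2 difference of 0.39 that missed the threshold (adjusted p = 0.134).

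In all, 6 of the 10 members were called in endoderm, defined as a fold change over 2 with an adjusted p under 0.05, against 26% of all genes tested. For 9 members the groups did not overlap, 8 being higher in endoderm and ID4 lower. Among all genes tested, 30.6% were higher without overlap and 29.8% lower, and 14.2% were called higher and 11.8% lower. The median log2 difference over the members was 1.07, beside 0.045 over all genes tested. Of the 59 other BMP pathway genes listed, 53 were tested, 15 were called higher and 6 lower, with a median of 0.53. The targets MSX1, MSX2, GATA2, GATA3 and HAND1 were the 5 of 9 listed targets called, all higher. MSX2, a homeobox gene, went from a mean of 0.270 to 18.2 CPM and MSX1, its relative, from 0.144 to 9.72 CPM. HAND1, a mesodermal basic helix-loop-helix factor, had 0 reads in hESC and 17 ± 7.55 CPM in DE_ctl (SD, n = 3), at least 273-fold higher by a limit of 3 reads over the hESC group. Among the other secreted antagonists, 8 of 13 were called, 5 of them higher. CER1 (cerberus), which binds BMP and Nodal ligands and marks early endoderm, went from 0.190 to 3863 CPM. BMPER, a CHRD-related modulator, went from 0.0615 to 20.8 CPM. In the same list CHRDL1, a CHRD relative, fell from 22.1 to 4.95 CPM. TLL2, a protease of the family that cleaves CHRD, fell from 5.70 to 0.466 CPM. The inhibitory SMADs SMAD6 and SMAD7 were both called higher, whereas 0 of the 4 signaling SMADs (SMAD1, SMAD4, SMAD5 and SMAD9) and 0 of the 3 E proteins were called.

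Some mesoderm markers rose along with these changes. The 7 listed mesoderm markers summed to 2.09 to 3.42 CPM in hESC and 667 to 1019 CPM in DE_ctl, of which MIXL1, shared by primitive streak and early endoderm, was 644 to 977 CPM. TBX6 was at 7.21 to 20.6 CPM, MESP1 at 3.08 to 5.67 CPM and FOXF1 at 0.597 to 1.24 CPM in DE_ctl. MSGN1 reached only 0.298 CPM in DE_ctl, and MEOX1 was at 3 reads or fewer in every library of both groups. The part of such cells in the levels of the BMP genes was not tested.

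Foregut was next compared with endoderm, over the same DE_ctl libraries. The foregut libraries were deposited later than the endoderm libraries, so tissue and deposit cannot be told apart. Mitochondrial reads made up 29.0 and 17.6% of gene reads in FG_ctl and 8.30 to 14.4% in DE_ctl. BMP2, ID3 and NOG fell, and ID4 rose. BMP2 was at 20.1 and 13.7 CPM in FG_ctl, against 118 to 148 CPM in DE_ctl, and fell by 2.94 on the log2 scale (SE 0.26, adjusted p = 6.42e-05). ID3 was at 29.0 and 41.4 CPM against 83.2 to 97.0 CPM and fell by 1.31 (SE 0.24, adjusted p = 0.00302). ID4 was at 15.8 and 17.7 CPM against 1.93 to 5.87 CPM and rose by 2.32 (SE 0.46, adjusted p = 0.00470). None of these ranges overlapped, and ID3 and ID4, members of the same family, thus went opposite ways between the same libraries.

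NOG had 25 and 0 reads in FG_ctl (0.822 and 0 CPM) and 2.16 to 6.62 CPM in DE_ctl. Its log2 change of -3.38 (SE 1.15, adjusted p = 0.0490) lay at the threshold and was no longer called without DE_ctl replicate 1 (-2.78) or replicate 3 (-3.46), without mitochondrial genes (-3.32), with DESeq2's size factors (-3.30) or in DESeq2 (-3.27). Without FG_ctl replicate 1, in which all its foregut control reads lay, the change was -9.65, and without FG_ctl replicate 2 it was -2.27. BMP7 was at 29.8 and 40.8 CPM against 63.9 to 74.6 CPM and was lower in every foregut library, with a log2 difference of -0.93 (SE 0.24, adjusted p = 0.0149) just under the 2-fold limit. Without FG_ctl replicate 2 that difference was -1.13 and was called. ID2 was at 39.1 and 29.5 CPM against 42.4 to 56.1 CPM, a log2 difference of -0.50 (adjusted p = 0.133).

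The remaining 4 members overlapped between endoderm and foregut. BMP4 was at 31.9 and 33.7 CPM in FG_ctl, inside the DE_ctl range of 30.7 to 70.1 CPM (log2 difference -0.63, adjusted p = 0.164). BAMBI was at 34.6 and 22.8 CPM (-0.29, adjusted p = 0.376), CHRD at 2.99 and 4.69 CPM (-0.44, adjusted p = 0.463) and ID1 at 27.5 and 48.9 CPM (0.043, adjusted p = 0.912). Of the 10 members, 4 were called, against 29% of 21466 genes tested. Of the 6 without overlap, 5 were lower and ID4 was higher. Among all genes tested, 33.5% were lower without overlap and 25.4% higher, and 15% were called lower and 14.1% higher. The median log2 difference was -0.57 over the members and -0.091 over all genes.

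**Figure D2:**
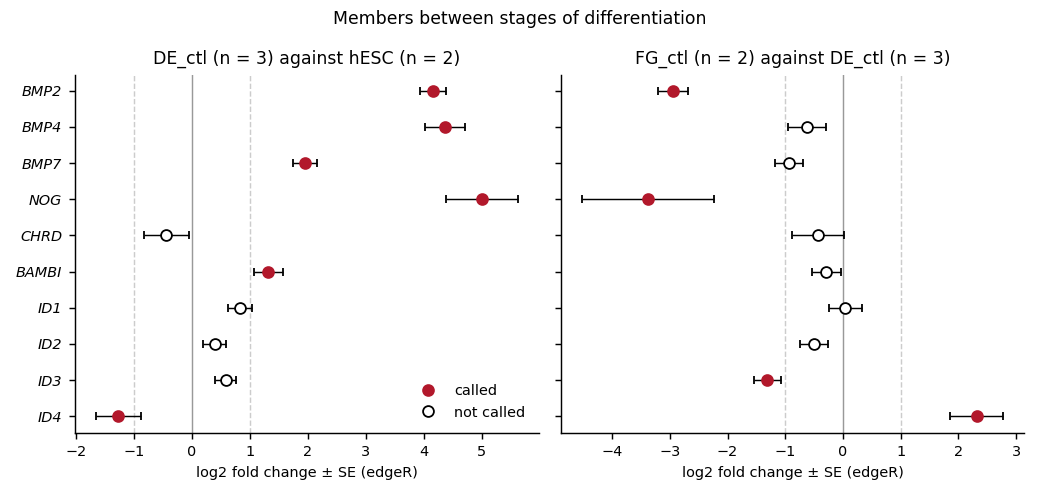
Log2 fold change of each member with its SE (horizontal axis) for DE_ctl against hESC (left) and FG_ctl against DE_ctl (right), both containing the 3 DE_ctl libraries, with filled points for called members and dashed lines at a 2-fold change. BMP2 and NOG lay at 4.16 and 5.00 on the left and at -2.94 and -3.38 on the right, and ID4 lay at -1.27 and 2.32.

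Of 54 other pathway genes tested in foregut, 13 were called higher and 15 lower, with a median log2 difference of -0.20. Of the 7 receptors, 2 were called higher and 3 lower. The type I receptor BMPR1B went from 0.429 to 32.4 CPM and ACVRL1 from 0.902 to 7.62 CPM. The type I receptors BMPR1A and ACVR1 fell from 56.1 to 25.7 CPM and from 26.3 to 10.5 CPM, and the type II receptor BMPR2 fell from 99.7 to 32.2 CPM. The co-receptor ENG rose from 1.75 to 18.8 CPM. ACVRL1 and ENG are best known from endothelium, and the endothelial cadherin CDH5 was at 0 to 0.184 CPM in DE_ctl and 30.2 to 31.3 CPM in FG_ctl. The 4 listed endothelium and blood genes present summed to 69.5 to 151 CPM in DE_ctl and 71.9 to 81.1 CPM in FG_ctl. Within this sum KDR fell from 67.1 to 150.5 CPM down to 22.3 to 34.9 CPM. HBE1 rose with CDH5, from at most 0.0637 CPM to 12.8 to 17.4 CPM, and TAL1 overlapped (0.796 to 2.23 against 2.00 to 2.01 CPM). The part of such cells was not tested. HEY1, a target shared with Notch signaling, rose from 1.43 to 13.6 CPM, CHRDL2 from 0.126 to 9.41 CPM and BMP1, the protease that cleaves CHRD, from 12.0 to 32.9 CPM. CER1 fell from 3863 to 0.886 CPM, BMPER from 20.8 to 0.152 CPM and HAND1 from 17 to 0.633 CPM. SMAD7 fell from 35.3 to 10.00 CPM, the CHRD cofactor TWSG1 from 60.2 to 14.8 CPM and the activin and BMP binding protein FST from 109 to 34.9 CPM. Summed mesoderm markers went from 667 to 1019 CPM in DE_ctl down to 6.11 to 7.46 CPM in FG_ctl. Summed amnion and trophoblast markers went from 12.3 to 15.3 CPM up to 102 to 131 CPM. That rise lay in KRT7 (37.9 to 88.2 CPM in FG_ctl), CDX2 (12.2 to 24.8) and GATA3 (18.2 to 29.8). ISL1 overlapped (6.38 to 8.80 against 6.74 to 12.1 CPM), and TFAP2A and VTCN1 reached at most 1.81 and 0.953 CPM in FG_ctl. Neither kind of cell was tested as a source.

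The sgRNA comparison asked whether repression of LTR5 elements altered these genes. In endoderm no member was called (0 of 10, beside 0.0343% of 20407 genes called by edgeR, 0.0049% higher and 0.0294% lower). BMP4 was at 52.4, 30.7 and 70.1 CPM in DE_ctl and at 146, 98.1 and 88.2 CPM in DE_CRISPRi. Every library with the sgRNA was thus above every library without it, and the log2 difference was 1.12 (SE 0.28), but the adjusted p was 0.341 in edgeR. CHRD was at 4.08, 7.94 and 3.63 CPM in DE_ctl and at 2.47, 1.81 and 3.53 CPM in DE_CRISPRi. It was the only member lower in every sgRNA library, against 4.44% of all genes higher and 5.56% lower without overlap, with a log2 difference of -1.01 (SE 0.37, adjusted p = 0.750). NOG was at 6.62, 2.16 and 3.63 CPM against 9.16, 6.38 and 6.90 CPM, with overlapping ranges and a log2 difference of 0.86 (SE 0.36, adjusted p = 0.892).

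The other members overlapped between DE_ctl and DE_CRISPRi. BMP2 was at 118 to 148 CPM against 131 to 149 CPM and BMP7 at 63.9 to 74.6 CPM against 58.6 to 66.1 CPM. BAMBI was at 32.5 to 38.4 CPM against 33.8 to 47.1 CPM. ID1, at 36.7 to 38.5 CPM, spread more widely with the sgRNA, at 19.9, 40.6 and 36.3 CPM, and ID2 did likewise at 42.4 to 56.1 CPM against 19.1, 50.3 and 34.8 CPM. In both ID genes the low value was DE_CRISPRi replicate 1, which also held the highest BMP4 value. ID3 (83.2 to 97.0 against 70.5 to 96.0 CPM) and ID4 (1.93 to 5.87 against 1.67 to 4.41 CPM) showed log2 differences of -0.11 and 0.0035. Of the members, 3 (BMP4, NOG and CHRD) had an unadjusted p under 0.05, as had 1057 genes in all. DESeq2 called 53 genes, BMP4 among them (1.14, adjusted p = 0.0421), as did edgeR without a filter on low counts (186 genes, BMP4 at 1.12, adjusted p = 3.58e-05), while limma voom called 1 gene and no member.

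By edgeR no other pathway gene of 52 tested in endoderm was called with the sgRNA. DESeq2 called 1, and edgeR without a filter on low counts called 2. By edgeR, 6 of the 52 had an unadjusted p under 0.05, beside 1057 of all 20407 genes tested. These 6 all had higher means in DE_CRISPRi. They were looked up after their values were seen. HAND1 went from a mean of 17 to 45.9 CPM (log2 difference 1.45, adjusted p = 0.199 in edgeR), FST from 109 to 204 CPM (0.90, adjusted p = 0.341) and BMPER from 20.8 to 38.6 CPM (0.90, adjusted p = 0.341). MSX2 went from 18.2 to 32.5 CPM (0.85, adjusted p = 0.383), MSX1 from 9.72 to 25.2 CPM (1.38, adjusted p = 0.524) and GATA2 from 1.01 to 2.51 CPM (1.31, adjusted p = 0.595). The MSX1 ranges overlapped, at 4.36 to 13.8 CPM in DE_ctl and 11.7 to 34.6 CPM in DE_CRISPRi. Over all 52 genes, 26 were higher and 26 lower, with a median of 0.0081, beside -0.018 over all genes. The mesoderm markers summed to 667 to 1019 CPM in DE_ctl and 869 to 1222 CPM in DE_CRISPRi. Within them TBX6 was at 7.21 to 20.6 against 14.5 to 38.7 CPM, MESP1 at 3.08 to 5.67 against 5.05 to 10.2 CPM and FOXF1 at 0.597 to 1.24 against 2.60 to 5.48 CPM. MSGN1 was at 0 to 0.298 against 0 to 0.468 CPM, and MEOX1 stayed at 3 reads or fewer. The amnion and trophoblast markers summed to 12.3 to 15.3 against 10.7 to 17.2 CPM and the endoderm markers to 5348 to 5985 against 5997 to 7037 CPM. The 7 pluripotency markers summed to 1592 to 1896 CPM in DE_ctl and 1133 to 1615 CPM in DE_CRISPRi, with overlap. NANOG (22 to 30.3 against 5.88 to 18.5 CPM) and DPPA4 (90.6 to 128 against 66.4 to 85.4 CPM) did not overlap. The others did, with POU5F1 at 665 to 824 against 386 to 684 CPM and SOX2 at 15.8 to 29.0 against 12.2 to 20.9 CPM. LIN28A was at 587 to 709 against 417 to 738 CPM, ZFP42 at 15.2 to 28.2 against 9.75 to 15.4 CPM and DNMT3B at 183 to 254 against 151 to 191 CPM. The part of mesoderm and pluripotent cells in the BMP4, MSX1, MSX2 and HAND1 values was not tested.

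In the foregut, again no member was called (0 of 10, beside 0.165% of 20044 genes, 0.0499% higher and 0.115% lower), none had an unadjusted p under 0.05, and limma voom and DESeq2 also called none. BMP4 was at 31.9 and 33.7 CPM in FG_ctl and at 35.2 and 17.8 CPM in FG_CRISPRi. The FG_ctl values lay between the FG_CRISPRi values. BMP7 (29.8 and 40.8 against 24.7 and 28.8 CPM) and ID4 (15.8 and 17.7 against 19.3 and 23.1 CPM) did not overlap, with log2 differences of -0.40 and 0.35 and an adjusted p of 1 for each, where 16.3% of all genes were lower and 11.1% higher without overlap. NOG had 25 and 0 reads against 0 and 19 reads, so each group held 1 library without a read. BMP2 (20.1 and 13.7 against 6.91 and 20.4 CPM), CHRD (2.99 and 4.69 against 1.88 and 3.33 CPM), BAMBI (34.6 and 22.8 against 16.3 and 23.4 CPM) and the other ID genes overlapped. Of the members, 8 had lower and 2 higher mean levels in FG_CRISPRi, with a median log2 difference of -0.31 beside -0.06 over all genes.

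**Figure D3:**
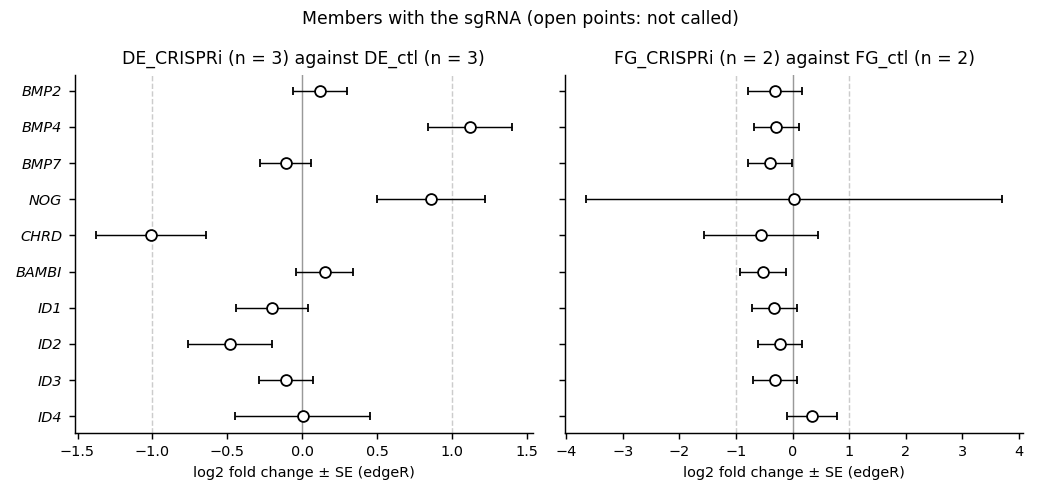
Log2 fold change of each member with its SE (horizontal axes, of different range) for DE_CRISPRi against DE_ctl (left) and FG_CRISPRi against FG_ctl (right), with dashed lines at a 2-fold change. No member was called by edgeR with the filter on low counts, BMP4 lay at 1.12 and CHRD at -1.01 in endoderm, and the SE of NOG in foregut was 3.68.

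The difference between the sgRNA effects in foregut and endoderm was tested with an interaction term, in which tissue and deposit again cannot be told apart. No member was called, beside 0.194% of 22708 genes (0.0528% higher and 0.141% lower), and BMP4 alone had an unadjusted p under 0.05, with an effect lower in foregut by 1.43 on the log2 scale (SE 0.50, adjusted p = 0.488 in edgeR). Of 55 other pathway genes, 1 was called, the target HAND1, at -8.35 (SE 1.28, adjusted p = 0.0277). HAND1 was at 13.6, 11.7 and 25.6 CPM in DE_ctl and at 53.0, 37.2 and 47.4 CPM in DE_CRISPRi. In foregut it had 10 and 37 reads in FG_ctl (0.329 and 0.938 CPM) and 0 reads in both FG_CRISPRi libraries, at least 10.8-fold lower by a limit of 3 reads over the group. The call rested on the 10 and 37 reads of FG_ctl in foregut, where the comparison alone did not pass (adjusted p = 1), and no pathway gene was called by limma voom, with at least 10 reads in 2 samples, with the replicate block or in 5 of the 10 fits that left out a library.

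Distances to LTR5 elements were read for each member. In GRCh37 coordinates, the closest annotated LTR5_Hs, LTR5B or LTR5A integrant lay 744 kb from BAMBI, 794 kb from BMP4 (chr14:54416454-54425479, minus strand), 832 kb from NOG, 859 kb from CHRD (chr3:184097842-184108524, plus strand), 882 kb from BMP2 and 956 kb from BMP7. For ID2, ID4, ID3 and ID1 it lay 1530, 1610, 2030 and 2520 kb away. The median distance over coding genes was 740.8 kb, close to the BAMBI value, and 820.2 kb when only integrants with a single subfamily name were counted, by which BAMBI and BMP4 were nearer than the median. None of these integrants had a read in the 12 libraries. The closest integrant was LTR5A for BAMBI and BMP4, LTR5B for NOG, CHRD, BMP2, BMP7 and ID1, and LTR5_Hs for the other 3 members. LTR5A transcripts were higher in DE_CRISPRi (88.7 to 110.0 CPM relative to gene reads) than in DE_ctl (39.1 to 62.8).

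In single nuclei, UMIs of each member were counted by marker class. Of 3646 deposited nuclei, 3422 passed the filters, and 3197 with at least 5000 UMIs (unique molecular identifiers, each a captured RNA molecule) were thinned to 5000 UMIs each. Nuclei with at least 1 UMI of a marker were called positive, giving 648 for TBXT (brachyury, of primitive streak and notochord), 492 for SOX2 (neural and pluripotent), 372 for TBX6 (presomitic mesoderm) and 1630 for PAX3 (somite and dorsal neural). The classes overlapped in 592 nuclei, and 717 nuclei had none of the 4 markers. Median UMIs before thinning were 18762.5, 17345, 17505 and 15675 in the order given. All came from 1 preparation, so no test was made, and the intervals cover counting error only. The share that free RNA gives was not estimated, so low shares of nuclei with a UMI are not read as expression. The notochord markers NOTO, FOXJ1, FOXA2 and SHH were detected in 38.4%, 38.7%, 34.6% and 26.5% of TBXT nuclei and in 5.46%, 7.18%, 4.91% and 1.41% of PAX3 nuclei. CHST9, also on the axial list, was rare in both (0.926% and 0.613%), with overlapping intervals. Of the presomitic markers, DLL3 was found in 72.0% of TBX6 and 24.7% of TBXT nuclei and MSGN1 in 11.8% and 3.09%, whereas HES7 (44.1% and 45.8%) and LFNG (32.0% and 41.8%) were no more frequent in TBX6 nuclei. MEOX1, a somite marker, was found in 56.6% of PAX3 nuclei. SOX3, a neural marker, was found in only 5.49% of SOX2 nuclei, so the classes are called by their marker alone.

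CHRD was the member most unevenly spread, with most of its UMIs in TBXT nuclei. CHRD was at 399 UMI-based CPM in TBXT nuclei (95% Poisson interval 378 to 421), 103 in SOX2 nuclei (90.9 to 117), 104 in TBX6 nuclei (89.6 to 119) and 17.4 in PAX3 nuclei (14.7 to 20.5). The span from the highest to the lowest class was 22.9-fold. A CHRD UMI was found in 47.5% of TBXT nuclei and 4.79% of PAX3 nuclei, with exact binomial intervals of 43.6 to 51.5% and 3.8 to 5.94%. The TBXT class, 20.3% of nuclei, held 69.9% of CHRD UMIs. Up to 17 CHRD UMIs were counted in a single nucleus, and 145 nuclei had 5 or more.

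BMP7 and BAMBI were likewise highest in TBXT and lowest in PAX3 nuclei. BMP7 was at 138 UMI-based CPM in TBXT nuclei (126 to 152), 59.8 in SOX2, 33.3 in TBX6 and 16.8 in PAX3 nuclei (14.1 to 19.9). BAMBI was at 50.6 in TBXT (43.2 to 59.0), 18.7 in SOX2, 19.4 in TBX6 and 8.34 in PAX3 nuclei (6.48 to 10.6). The TBXT class thus held an antagonist, a ligand and a pseudoreceptor of the same pathway at their highest levels, with 62.4% of all BMP7 and 51.9% of all BAMBI UMIs. NOG was sparse, at 19.4 in TBXT (14.9 to 24.9), 18.7 in SOX2 (13.7 to 24.9), 8.71 in PAX3 (6.80 to 11) and 4.3 in TBX6 nuclei (1.86 to 8.47, from 8 UMIs). It did not differ between TBXT and SOX2 nuclei beyond counting error. CHRD and BMP7 UMIs stood in a ratio of 2.89 in TBXT nuclei (2.59 to 3.22) and 1.04 in PAX3 nuclei (0.814 to 1.32), so their counts did not keep 1 ratio across classes.

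**Figure D4:**
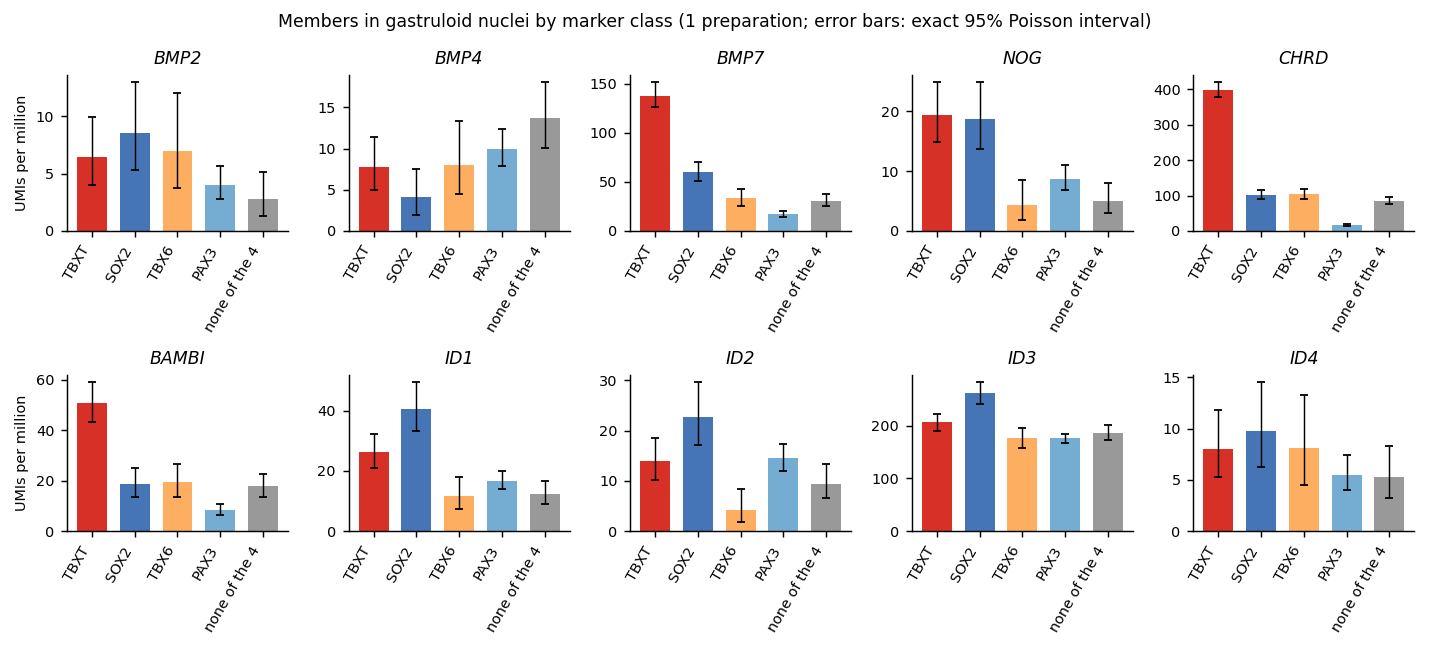
UMI-based CPM of each member (vertical axis, a separate linear scale for each gene) in gastruloid nuclei positive for TBXT, SOX2, TBX6 or PAX3 or for none of the 4, with exact 95% Poisson intervals as error bars. CHRD, BMP7 and BAMBI peaked in TBXT nuclei, and ID1 and ID3 in SOX2 nuclei, with ID2 also highest there but with overlapping intervals.

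The other ligands and the ID genes were ordered differently. BMP4 was at 9.94 UMI-based CPM in PAX3 nuclei (7.89 to 12.4), 8.06 in TBX6, 7.72 in TBXT and 4.07 in SOX2 nuclei (1.95 to 7.48), and at 13.7 in nuclei with none of the 4 markers (10.1 to 18.1). BMP2 was at 4.05 to 8.54 in the 4 classes, with intervals that overlapped throughout. The SOX2 interval of BMP4 thus lay below those of PAX3 nuclei and of nuclei with no marker, while the other BMP4 intervals of the 4 classes overlapped. ID3 was the most abundant ID gene, at 261 in SOX2 nuclei (241 to 282), 206 in TBXT (190 to 222) and 176 in both TBX6 and PAX3 nuclei, a 1.48-fold span. ID1 was at 40.7 in SOX2 (33.1 to 49.4), 26.2 in TBXT (21.0 to 32.4), 16.8 in PAX3 and 11.8 in TBX6 nuclei (7.41 to 17.9). ID2 was at 22.8 in SOX2 (17.2 to 29.6), 14.5 in PAX3 (12.0 to 17.3), 13.9 in TBXT (10.1 to 18.6) and 4.3 in TBX6 nuclei (1.86 to 8.47). In these classes, which share nuclei, ID1 and ID3 thus had their highest level in SOX2 nuclei beyond counting error. The ID2 interval there overlapped those of PAX3 and TBXT nuclei, and CHRD was at 103 in SOX2 against 399 in TBXT nuclei. ID4 was at 5.52 to 9.76 with overlapping intervals. In SOX2 nuclei without TBXT, ID1 was at 43.9 (35.0 to 54.3) and CHRD at 67.9 (56.7 to 80.6), whereas TBXT nuclei without SOX2 had 25.6 (19.9 to 32.4) and 434 (409 to 459).

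Nuclei positive for 1 marker alone gave wider gaps. CHRD was at 591 UMI-based CPM in 340 nuclei with TBXT alone and 10.7 in 1195 with PAX3 alone, BMP7 at 189 and 10.5, and BAMBI at 70.0 and 7.36. The ID1 intervals overlapped between SOX2 alone (51.2, 37.2 to 68.7) and TBXT alone (32.9, 24.9 to 42.8). Those of ID3 did not (297, 261 to 335, against 217, 195 to 240). Without thinning the gaps were narrower, with CHRD at 267 in TBXT and 48.7 in PAX3 nuclei, and 5 members rather than 8 spanned at least 2-fold over the 4 classes. Over all thinned nuclei, CHRD went with the number of TBXT UMIs. CHRD was at 43.8 in 2549 nuclei with no TBXT UMI, 239 in 448 with 1 UMI, 608 in 102 with 2 and 914 in 98 with 3 or more (832 to 1000). BMP7 was at 21.2, 91.1, 229 and 259 and BAMBI at 11.9, 38.4, 74.5 and 81.6 over the same steps. The BMP7 and BAMBI intervals of the last steps overlapped. NOG was at 7.53, 13.4, 27.5 and 38.8. ID1 was at 17.2, 26.8, 25.5 and 24.5 and did not go on rising after the first TBXT UMI.

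**Figure D5:**
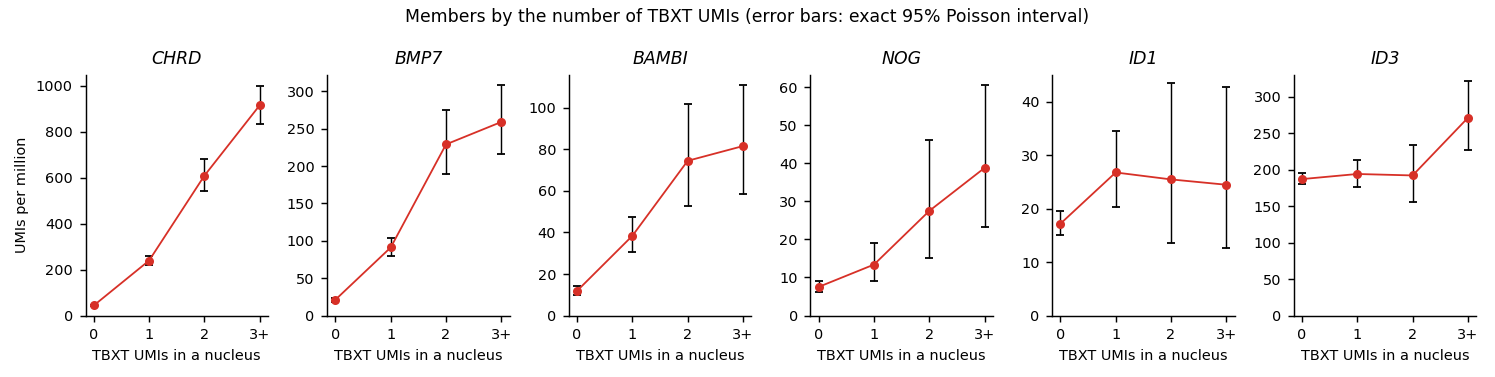
UMI-based CPM of 6 members (vertical axes, linear) against the number of TBXT UMIs in a nucleus after thinning (horizontal axis: 0, 1, 2, 3 or more), with exact 95% Poisson intervals. CHRD went from 43.8 to 914 over the 4 steps, and ID1 stayed between 17.2 and 26.8.

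Members were also found in the same nuclei. A BMP7 UMI was present in 51.2% of the 541 nuclei with CHRD and in 7.12% of the rest. BAMBI was present in 28.1% against 3.58% and NOG in 10.2% against 3.31%. BMP4 went the other way, at 1.85% of nuclei with CHRD and 4.56% of the rest. ID1 was found in 11.8% of nuclei with CHRD and 7.27% of the rest, and ID3 in 58.2% and 51.5%. All nuclei had the same number of UMIs in this count, and it is a description of 1 preparation.

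The genes most like each member over the 12 bulk libraries were named by Pearson's r of log2(CPM + 1), as a description of libraries that share cell line and stage. BMP2 was most like B4GALT4 (r = 0.993) and CHL1 (0.992), and BMP4 like KIFC3 (0.968) and AMHR2 (0.964). BMP7 was most like PLAAT5 (0.976) and LINC00479 (0.974), and NOG like DYNC1I1 (0.983) and OXTR (0.981). BAMBI was most like HHEX (0.941), an anterior endoderm factor, and ZNF396 (0.937). CHRD was most like DPAGT1 (0.85) and PXDN (0.825), ID1 like NUDT19 (0.887) and ZSWIM4 (0.837), and ID2 like SAR1A (0.85) and NUP43 (0.836). ID3 was most like NRG3 (0.983) and TYMS (0.981), and ID4 like ARL15 (0.98) and FAM8A1 (0.975). CHRD, ID1 and ID2, called in neither stage comparison, had the lowest r.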

How the data were processed

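The 12 bulk libraries were polyA RNA sequenced with a stranded mRNA kit. Per the study's methods, the authors mapped reads to hg19 with HISAT2 and deposited raw counts of uniquely mapped reads per gene and per transposable element integrant, made by featureCounts on 1 annotation of both, with the strand setting of the counting not given in the sources used here. For the gastruloids they deposited UMI counts per gene and nucleus and peak positions from cellranger-arc (version 2.0.0 in the submitters' processing notes) on hg38. Libraries held 11583063 to 37152434 gene reads, of which 8.30 to 34.7% were mitochondrial, and 8012 of 63677 gene IDs had no symbol. Pearson's r of log2 CPM within groups was 0.9741 to 0.9974.

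Genes with 3 reads in at least 1 sample were tested with edgeR 4.0.16 (TMM, glmQLFit and glmQLFTest, two-sided) in R 4.3.3, with only the compared groups in each fit and Benjamini-Hochberg adjustment over all genes tested. This replaced the study's limma voom, which was kept as an alternative. Nothing says that replicates were separate cultures, so p-values measure only the spread between these samples. Nuclei were kept from 1000 UMIs and 200 genes upwards if no more than 25% of UMIs were mitochondrial, and no doublet caller was run. Alternatives were limma voom (limma 3.58.1), DESeq2 1.42.0, other scaling, other filters, all libraries in one fit, a replicate block, leaving out each library, and for nuclei other thinning, thresholds and filters and leaving out the top 5% of UMIs. The fits were tested on simulated counts with 100 genes changed 2-fold and 100 changed 4-fold, at an adjusted p under 0.05. For endoderm against hESC, 60 and 97 were found, and for foregut against endoderm 28 and 83. The sgRNA fits found 50 and 96 in endoderm, 8 and 46 in foregut, and 1 and 45 for the interaction. The 2-fold limit of a call was not applied here, and no gene with a low mean count was changed. These numbers therefore do not hold for the full calling rule or for low-count members such as NOG and CHRD. A lack of calls with the sgRNA in endoderm, in foregut or for the interaction does not exclude 2-fold changes.

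The members, the pathway and marker lists and the naming rule were chosen with earlier results of these data known. All members are named, and the 6 sgRNA-associated pathway genes in endoderm were named after their values were seen. Other pathway genes are named, up to 6 in each direction, where called and averaging 1 CPM or more in 1 group, by smallest adjusted p, and the 2 genes most like each member by Pearson's r among genes averaging 1 CPM or more. Means are given as ± SD over libraries, and intervals of UMI counts and shares are exact at 95% and, like limits set by 3 counts, cover counting error only. Some items are not reported here.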

Additional observations from a re-analysis of the deposited data

Results flagged for a closer look

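The HAND1 effect of the sgRNA differed between tissues by the interaction term, at -8.35 on the log2 scale (edgeR, adjusted p = 0.0277), with HAND1 higher with the sgRNA in every endoderm library and at 0 reads in both FG_CRISPRi libraries. No pathway gene, HAND1 included, was called for this term by limma voom, with at least 10 reads in 2 samples, with the replicate block or without DE_ctl replicate 1 or 2, DE_CRISPRi replicate 1 or FG_ctl replicate 1 or 2. The foregut side rests on 10 and 37 reads in FG_ctl, and the cause was not tested.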

How the results depend on the processing

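Groups of 2 or 3 libraries and the low counts of NOG and CHRD limit the bulk comparisons, and 1 preparation limits the nuclei. Of 400 log2 fold changes of members under other settings, 391 kept direction and side of the threshold, 4 lost a call, 2 gained one and 3 turned, and of 300 fits leaving out a library 266 kept both, 6 lost, 1 gained and 27 turned. None of the values that turned was called. In endoderm with the sgRNA, 1 member (BMP4) and 2 pathway genes were called without a filter on low counts and 1 member and 1 pathway gene by DESeq2, and over all genes the count of 7 became 186, 53 and, with limma voom, with at least 10 reads in 2 samples or with all 12 libraries in one fit, 1. In foregut with the sgRNA, 2 pathway genes were called with all 12 libraries in one fit, and the count over all genes of 33 became 204, 11 with limma voom and 1 with at least 10 reads in 2 samples. Without FG_CRISPRi replicate 1 that count was 527. For the interaction, 0 pathway genes were called with at least 10 reads in 2 samples, by limma voom or with the replicate block, and the 44 calls over all genes became 229 in DESeq2, 139 without a filter on low counts, 16 with at least 10 reads in 2 samples and 86 with all 12 libraries in one fit. Leaving out each library gave 0 to 1 pathway calls with the sgRNA in endoderm (1 without DE_ctl replicate 3) and in foregut (1 without FG_CRISPRi replicate 1 or 2) and 0 to 2 for the interaction (2 without FG_CRISPRi replicate 2, and 0 without DE_ctl replicate 1 or 2, DE_CRISPRi replicate 1 or FG_ctl replicate 1 or 2), with 4 to 6 member calls in endoderm against hESC and 3 to 5 in foregut against endoderm. ID4 in endoderm with the sgRNA turned to -0.00540 without a filter on low counts, and ID1 in foregut against endoderm to -0.00613 with limma voom and -0.00921 with the replicate block. The cause was not tested.

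The replicate numbers gave no sign of pairing. Deviations of same-numbered libraries correlated at -0.097 to 0.104, and those of differently numbered libraries at -0.125 to 0.142. With so few libraries per group, these values cannot show that the samples were unpaired. With the replicate block, 6 members were called in endoderm against hESC and 4 in foregut against endoderm, none elsewhere, and over all genes 5051, 10, 19, 5460 and 0 were called for endoderm against hESC, the sgRNA in endoderm, the sgRNA in foregut, foregut against endoderm and the interaction. It changed no other call of a member.

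Ranges over fits leaving out a library, for members that turned, were as follows on the log2 scale. CHRD in endoderm against hESC ran from -0.959 to 0.374. With the sgRNA in endoderm, ID1 ran from -0.374 to 0.0640 and ID4 from -0.283 to 0.697. With the sgRNA in foregut, BMP4 ran from -0.885 to 0.127, NOG from -6.73 to 6.64, ID2 from -0.725 to 0.166, BMP2 from -1.26 to 0.272 and ID1 from -0.713 to 0.181. In foregut against endoderm, BAMBI ran from -0.618 to 0.0304, ID1 from -0.388 to 0.394 and CHRD from -0.753 to 0.0372. For the interaction, ID3 ran from -0.421 to 0.0685, NOG from -7.05 to 5.30, ID2 from -0.266 to 0.666, BMP2 from -1.41 to 0.170, ID1 from -0.490 to 0.348, CHRD from -0.0194 to 0.816 and ID4 from -0.348 to 0.628.

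In nuclei, 8 members spanned at least 2-fold over the 4 classes, 8 with positives from 2 UMIs, 6 when thinned to 10000 UMIs, 5 without thinning and 9 with 1 marker alone. CHRD, BMP7 and BAMBI were highest in TBXT and lowest in PAX3 nuclei without thinning as well.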

Other observations

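Of the other BMP pathway genes, 44 were in the table of nuclei, and 12 had their highest level in TBXT, 8 in SOX2, 8 in TBX6 and 16 in PAX3 nuclei. No minimum count or span was required, so the highest class was not always beyond counting error. BMP8A had 8 UMIs in all, and SMURF1 spanned 1.12-fold. DAND5, a secreted Nodal and BMP antagonist of the CER1 family, was at 348 UMI-based CPM in TBXT and 21.3 in PAX3 nuclei, and the ligand BMP6 was at 131 and 12.0, both highest in TBXT nuclei like CHRD and BMP7. SMAD9 was at 35.2 in TBXT and 11.3 in TBX6 nuclei. FST, which binds activins and some BMPs, was the most abundant antagonist and was ordered otherwise, at 1310.0 in PAX3 and 388 in TBX6 nuclei. NBL1 (27.1 in PAX3, 6.45 in TBX6), BMPER (35.5 in PAX3, 8.95 in TBXT) and the ligand BMP5 (82.7 in PAX3, 25.3 in TBX6) were also highest in PAX3 nuclei. GREM1 was highest in TBX6 nuclei (34.9, against 10.6 in PAX3), as was the protease TLL2 (22.6, against 3.7 in TBXT). The target MSX1 was highest in SOX2 nuclei (83.7, against 31.4 in PAX3), where ID1 and ID3 were highest too. Receptors varied little, their highest and lowest classes differing by 1.20-fold for BMPR2 to 1.68-fold for ACVR1. These levels come from 1 preparation and were not tested.

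CER1, at 3542 to 4094 CPM in bulk DE_ctl, had only 53 UMIs in all thinned nuclei, and SMAD7, called higher in bulk endoderm, had 39.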
